A study of Mus musculus with 22 samples.

Results

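The 29 genes described here encode the enzymes and regulators of cholesterol and fatty acid synthesis. They were taken from a list of symbols, and all 29 were found among the 23993 symbols of the table of cultures and allografts. In the table of primary cancers and their cultures 28 were found among 23490 symbols, and Tm7sf2 was not analysed there. The sterol branch held 18 genes, namely the enzymes from Hmgcs1 to Dhcr7 and the regulators and carrier Srebf2, Insig1 and Stard4. The fatty acid branch held 11 genes, namely Srebf1, the enzymes of citrate and acetate use, synthesis, elongation and desaturation, and the malic enzyme gene Me1.

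Cells from the mammary glands of nulliparous C57Bl/6 females were grown as cultures named CRC or EpiC in the labels, which do not spell these names out. The series' title sets mammary-optimized culture against conditional reprogramming, a method in which epithelial cells grow on feeder cells. All donors carried MMTV-Cre, which is driven by a promoter active in mammary epithelium, and 1 mutant allele of Trp53. They also carried Tet-op-CYP19A1 with MMTV-rtTA (here CYP19A1), Brca1fl11/WT (Brca1het) or Brca1fl11/fl11 (Brca1hom). Each genotype gave a single culture of either kind. CRC culture 1 and EpiC culture 1 were CYP19A1, those numbered 2 were Brca1het, and those numbered 3 were Brca1hom. Allografts were grown in the mammary gland of NU(NCr)-Foxn1nu hosts, nude mice that lack T cells but keep other immune cells. There were 7 CRC allografts, of which 1 was CYP19A1 (6C), 3 were Brca1het (10B, 10C and 11C) and 3 were Brca1hom (1, 2 and 12). There were 3 EpiC allografts, of which 1 was CYP19A1 (7B) and 2 were Brca1het (4C and 5A). A second table held 2 primary Brca1het cancers with a CRC culture and an EpiC culture of each, paired by their titles. The labels give neither the age of the mice, nor which culture gave rise to which allograft, nor whether libraries of 1 group came from separate animals. The p-values therefore measure the spread between these libraries, which may be technical.

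Cholesterol is made from acetyl-CoA through mevalonate, the isoprenoid farnesyl diphosphate, squalene and lanosterol, and the enzymes of that route are induced together by the transcription factor SREBP2 when membrane cholesterol is low. SREBP1 acts in the same way on the genes of fatty acid synthesis and desaturation. Both factors are held in the endoplasmic reticulum by SCAP and the INSIG proteins while sterols are plentiful. In the mammary gland this programme is best known from lactation, when the epithelium makes milk fat.

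Values are FPKM, fragment counts scaled to transcript length and to library size, so levels may be set side by side between genes. The number of reads behind them was not given, so no counting error can be attached. The FPKM of a library summed to between 466400 and 825200 in the cultures and allografts and was highest in EpiC allograft 5A. The sum lay between 607500 and 710500 in 5 libraries of the cancer table and was 1616000 in the CRC culture of cancer 2. Brca1 spanned 2.02 to 5.61 FPKM over the 16 libraries of the first table, but a value for the whole gene does not check the loss of its conditional part. EpiC culture 3 stood apart: 8 epithelial markers summed to 15.9 FPKM, against 2280 and 2373 in the other EpiC cultures and 9708 to 15750 in the CRC cultures. In the same EpiC cultures 9 fibroblast markers summed to between 4590 and 7314 FPKM, against 63.1 to 230.2 in the CRC cultures. The EpiC comparisons are therefore given with and without EpiC culture 3.

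Promoter windows reach from 250 bases before to 50 bases after the start of a gene and come from RefSeq (GRCm38.p6). They were matched for 22 of the 29 genes, as 28 windows. The letters TCACNCCAC, a form of the sterol regulatory element to which SREBP binds, occurred on either strand in the window of 1 of the 22 genes, Hmgcs1, against 1.44% of 27025 symbols. The CCAAT box, bound by the factor NF-Y that assists SREBP, occurred in 19 of the 22, against 41.1% of all symbols, and the GC box GGGCGG occurred in 18 of the 22, against 38.2%. The E-box CACGTG occurred in 3, namely Hsd17b7, Dhcr7 and Insig1, against 8.09%. A match describes letters in a window and is not a measured binding site. A set of 4 windows is shown, 3 from genes with large differences between the groups (Hmgcs1, Nsdhl and Acss2) and 1 from Insig1, a known SREBP target with no called difference. Capitals mark each CCAAT box, which reads ATTGG on the opposite strand, and in Hmgcs1 also the TCACNCCAC match, which begins 137 bases before the start. None of the searched letters overlap another kind in these windows.
Hmgcs1, chr13:119690101-119690400, plus strand: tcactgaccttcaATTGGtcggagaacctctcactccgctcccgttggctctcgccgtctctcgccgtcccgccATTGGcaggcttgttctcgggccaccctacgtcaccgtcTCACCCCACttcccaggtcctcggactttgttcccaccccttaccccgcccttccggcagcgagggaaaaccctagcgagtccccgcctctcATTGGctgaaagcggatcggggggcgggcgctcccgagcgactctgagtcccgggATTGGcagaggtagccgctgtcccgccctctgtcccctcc
Nsdhl, chrX:72918271-72918570, plus strand: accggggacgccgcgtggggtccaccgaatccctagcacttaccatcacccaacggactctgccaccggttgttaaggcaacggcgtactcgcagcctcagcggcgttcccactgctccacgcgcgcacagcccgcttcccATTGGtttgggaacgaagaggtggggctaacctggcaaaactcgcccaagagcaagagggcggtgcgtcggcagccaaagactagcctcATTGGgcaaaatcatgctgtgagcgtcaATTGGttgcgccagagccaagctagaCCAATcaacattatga
Acss2, chr2:155517793-155518092, plus strand: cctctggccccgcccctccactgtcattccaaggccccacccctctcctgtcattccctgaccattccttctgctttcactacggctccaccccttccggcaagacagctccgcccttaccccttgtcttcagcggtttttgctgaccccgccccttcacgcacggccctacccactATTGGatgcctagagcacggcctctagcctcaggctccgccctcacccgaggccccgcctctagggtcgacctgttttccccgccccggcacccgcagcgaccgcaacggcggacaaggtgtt
Insig1, chr5:28071162-28071461, plus strand: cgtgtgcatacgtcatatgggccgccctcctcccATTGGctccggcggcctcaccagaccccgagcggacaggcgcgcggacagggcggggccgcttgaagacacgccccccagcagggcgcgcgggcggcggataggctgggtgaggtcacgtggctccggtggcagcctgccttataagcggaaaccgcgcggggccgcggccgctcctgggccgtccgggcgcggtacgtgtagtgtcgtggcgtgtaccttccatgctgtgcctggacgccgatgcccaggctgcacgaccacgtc
The windows of Hmgcs1 and Nsdhl each held 4 CCAAT boxes, and those of Acss2 and Insig1 held 1 each. Acss2 held 5 GC boxes, Hmgcs1 and Insig1 held 3 each, and Nsdhl held 1.

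The first comparison asked how the culture method bears on these genes. In the cultures 4 of 18 sterol genes (Hmgcs1, Idi1, Lss and Nsdhl) were past the threshold and higher under CRC. So were 2 of 11 fatty acid genes (Acaca and Acss2). None of these 6 passed under every alternative setting tried. A gene was called at an adjusted p under 0.05 in limma's moderated test on log2(FPKM + 1), with genotype in the model and Benjamini-Hochberg adjustment over all genes tested. By that rule 6 of the 29 were called higher and 0 lower, and 11.4% of the 11837 genes tested were called higher. The median log2 difference, CRC minus EpiC, was 1.16 over the sterol branch and 0.88 over the fatty acid branch, beside 0.043 over all genes tested. Differences lay above 0 for 17 of 18 sterol genes and 8 of 11 fatty acid genes.

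At the entry of the route, Hmgcs1, the synthase that condenses acetyl-CoA units into HMG-CoA, stood at 116.2, 183.7 and 150.4 FPKM in CRC cultures 1, 2 and 3 and at 41.9, 53.03 and 15.7 in EpiC cultures 1, 2 and 3. The groups did not overlap, and the log2 difference was 2.13 (SE 0.38, limma adjusted p = 0.0275). The kinase genes Mvk and Pmvk and the decarboxylase gene Mvd, which turn mevalonate into isopentenyl diphosphate, were not called, with log2 differences of 0.65, 1.08 and 0.69. Idi1, which isomerises isopentenyl diphosphate, stood at 5.84, 19.3 and 13.2 FPKM under CRC and at 2.86, 3.41 and 0.939 under EpiC, and its log2 difference was 1.97 (SE 0.43, limma adjusted p = 0.0414). Every CRC culture lay above every EpiC culture for Idi1, and its level was below that of Hmgcs1 in each culture.

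Fdps, the synthase of farnesyl diphosphate, had the highest level of the sterol branch in every culture, at 193.0, 387.0 and 339.3 FPKM under CRC and 110.6, 139.2 and 36.3 under EpiC. Its log2 difference of 1.82 (SE 0.50) did not pass (limma adjusted p = 0.0634), although the groups did not overlap. Squalene synthase (Fdft1) was at 63.5, 105.5 and 106.3 FPKM under CRC and 45.7, 48.8 and 23.0 under EpiC, a log2 difference of 1.24 that was not called (limma adjusted p = 0.0715). For Sqle, which oxidises squalene, EpiC culture 1 at 90.9 FPKM lay above CRC culture 1 at 75.8, and the log2 difference of 0.99 was not called. Lss, which closes the ring to lanosterol, was called, at 12.8, 23.9 and 22.3 FPKM under CRC and 6.43, 10.04 and 6.61 under EpiC (log2 difference 1.23, SE 0.21, limma adjusted p = 0.0245).

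Among the genes that turn lanosterol into cholesterol, Nsdhl, a sterol dehydrogenase, was called, at 42.3, 136.5 and 85.2 FPKM under CRC and 28.1, 35.8 and 18.2 under EpiC (log2 difference 1.55, SE 0.36, limma adjusted p = 0.0454). Its lowest CRC culture and its highest EpiC culture were close, and the groups did not overlap. Cyp51, Tm7sf2, Hsd17b7, Ebp and Dhcr7, which act before or after Nsdhl on the same route, had log2 differences of 1.33, 1.10, 1.59, 0.60 and 0.58, and none was called. Dhcr7, the last step, had its highest level of all cultures in EpiC culture 1, at 58.3 FPKM, and its lowest in EpiC culture 3, at 6.55. Of the regulators, Srebf2, which encodes SREBP2, had a log2 difference of 0.48 and Insig1, which retains SREBP, of -0.29, neither called, and Stard4, a cholesterol carrier, had 1.42 (limma adjusted p = 0.0539).

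In the fatty acid branch, Acss2, which makes acetyl-CoA from acetate, had the largest difference of all 29 genes. It stood at 20.6, 36.5 and 59.1 FPKM in CRC cultures 1, 2 and 3 and at 6.72, 5.47 and 4.33 in the EpiC cultures (log2 difference 2.50, SE 0.42, limma adjusted p = 0.0239). Acaca, whose product makes malonyl-CoA, was at 10.6, 11.6 and 10.53 FPKM under CRC and 4.94, 4.42 and 2.92 under EpiC (log2 difference 1.25, SE 0.19, limma adjusted p = 0.0218). Both genes showed no overlap between the culture methods. Fatty acid synthase (Fasn) and ATP citrate lyase (Acly) had log2 differences of 1.02 and 0.88 and were not called.

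The desaturase genes Scd1 and Scd2, which put the first double bond into saturated fatty acids, had the highest levels of the fatty acid branch in each culture. Scd1 was at 145.0, 788.1 and 715.7 FPKM in CRC cultures 1, 2 and 3 and at 170.5, 173.4 and 83.2 in the EpiC cultures. CRC cultures 2 and 3 were more than 4 times above every EpiC culture while CRC culture 1 lay among them, and the log2 difference of 1.68 was not called (SE 0.68, limma adjusted p = 0.136). Scd2 and Fads2 had log2 differences of 0.88 and 0.71, neither called. Srebf1, Fads1, Elovl6 and Me1 lay between -0.35 and 0.16, and none was called.

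The size of the difference varied between the genotypes. Between the CYP19A1 cultures 11 of 18 sterol genes and 4 of 11 fatty acid genes were higher under CRC, with median log2 differences of 0.26 and -0.09. Between the Brca1het cultures 17 of 18 and 10 of 11 were higher, with medians of 1.16 and 1.10. Between the Brca1hom cultures 18 of 18 and 8 of 11 were higher, with medians of 2.16 and 1.41. Each genotype had 1 culture of each kind, so no test of this difference was possible. CRC culture 1 was the lowest CRC culture for 18 of 18 sterol genes, and EpiC culture 3 was the lowest of the 6 cultures for 16 of 18.

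**Figure D1:**
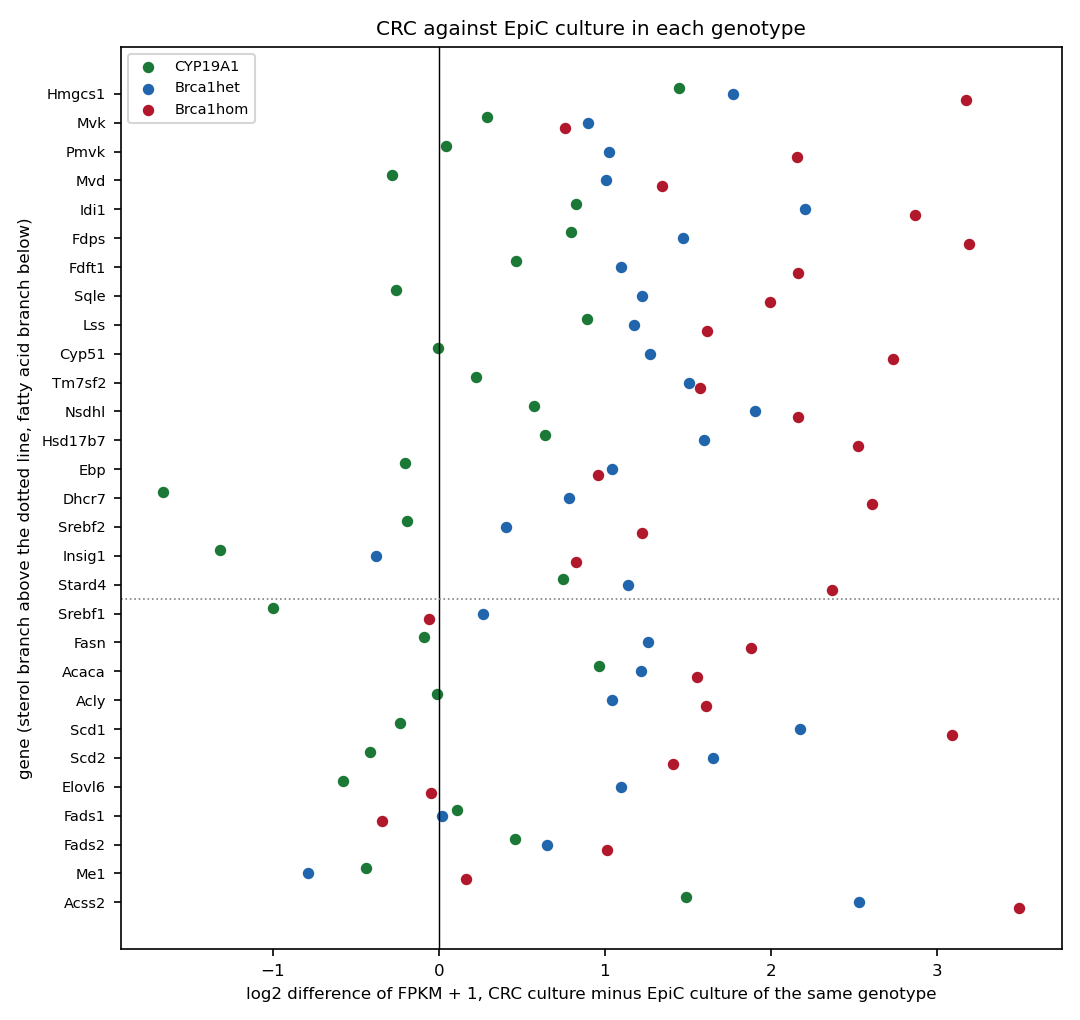
The x axis is the log2 difference of FPKM + 1 between the CRC and the EpiC culture of 1 genotype, the y axis lists the 29 genes, and each point is 1 pair of libraries. The Brca1hom points lie above 0 for 18 of 18 sterol genes, and the CYP19A1 points lie above 0 for 11 of 18.

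Other genes of the pathways were taken from lists. Of 17 other sterol genes tested, 2 were called higher under CRC, among them Scap, the SREBP escort, by 1.19 on the log2 scale, and 3 lower (the lysosomal lipase gene Lipa at -2.26, the SREBP protease gene Mbtps1 at -1.23 and the lysosomal carrier gene Npc2 at -1.20). Of 8 genes of LXR and sterol efflux, 0 were called higher and 2 lower, Ch25h at -3.41 and Abca1 at -1.24. Ch25h makes 25-hydroxycholesterol, which holds SREBP in the endoplasmic reticulum, and its highest CRC culture was at 0.349 FPKM while its lowest EpiC culture was at 7.19. Of 20 other fatty acid and lipid genes tested, 1 was called higher (Pnpla3 at 1.28) and 0 lower. Over all genes 11.7% were called lower, beside the 11.4% called higher, so the shares of the other sterol genes are near the background.

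Of the fibroblast markers 8 of 9 were called lower under CRC, and of the epithelial markers 2 of 8 were called higher. Their part in the sterol and fatty acid differences was not tested. Of 12 adipocyte markers 9 were tested and 1 was called lower, and the fat cell genes Adipoq and Plin1 reached at most 4.17 and 0.857 FPKM in the cultures. Without EpiC culture 3, 4 members were called higher (Acaca, Acss2, Hmgcs1 and Lss), where 8.23% of all genes were. With genotype in the model, leaving out 1 culture also took its partner of the same genotype out of the estimate. Omitting either culture of a genotype thus rests on the same remaining pairs. Without CRC culture 2, or without EpiC culture 2, limma called 0 members higher, with 7 at an unadjusted p under 0.05. Over all genes 0.406% or 0.507% were then called higher, and the median log2 difference of the sterol branch was 1.18.

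The second comparison asked how growth in a host bears on the same genes. In the allografts 15 of the 29 were called lower than in the cultures and 0 higher, where 16.4% of 12325 genes were called lower, with genotype and culture method in the model. The sterol branch gave 9 of the 15 and the fatty acid branch 6, and all 29 log2 differences lay below 0. The called members were Hmgcs1, Idi1, Fdft1, Sqle, Lss, Cyp51, Tm7sf2, Nsdhl and Stard4, and Srebf1, Scd1, Scd2, Fads1, Fads2 and Acss2. Allografts hold host cells as well as grafted cells, and in bulk RNA fewer cells of a type and less RNA per cell cannot be told apart. Macrophage markers summed to between 3963 and 12933 FPKM in the allografts and to between 7.61 and 55.5 in the cultures, and 10 of 10 were called higher. Epithelial markers summed to between 45.5 and 906.6 FPKM in the allografts, and 6 of 8 were called lower. The part of these markers in the changes below was not tested.

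More of the genes were called for CRC cells than for EpiC cells, but the contrasts held 7 and 3 allografts. No EpiC allograft was Brca1hom, so EpiC culture 3 had no allograft of its genotype. The counts are therefore not on an equal footing. When CRC allografts were set against CRC cultures, 18 of 29 were called lower and 0 higher, where 18.4% of all genes were called lower. When EpiC allografts were set against EpiC cultures, 3 of 29 were called lower and 0 higher, where 6.26% of all genes were, so the EpiC count is not far from the background. These contrasts come from 1 model of 4 groups, and the CRC cultures and EpiC cultures are the same libraries as in the comparison of culture methods. The median log2 difference, allograft minus culture, was -1.45 (sterol) and -1.26 (fatty acid) for CRC cells and -0.45 and -0.53 for EpiC cells, beside 0.039 and 0.008 over all genes tested. The test of the difference between the 2 contrasts called 6 members, each with the lower log2 difference for CRC cells, where 5.87% of all genes were called in that direction. They were Hmgcs1, Fdft1, Nsdhl, Acaca, Scd1 and Acss2. In the same test 8 of 9 fibroblast markers were called, each with the higher log2 difference for CRC cells, and their part in the 6 calls was not tested. The count was 3 without CRC culture 2 or 3, EpiC culture 3, or CRC allograft 10B or 10C, and it was 10 without CRC culture 1.

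**Figure D2:**
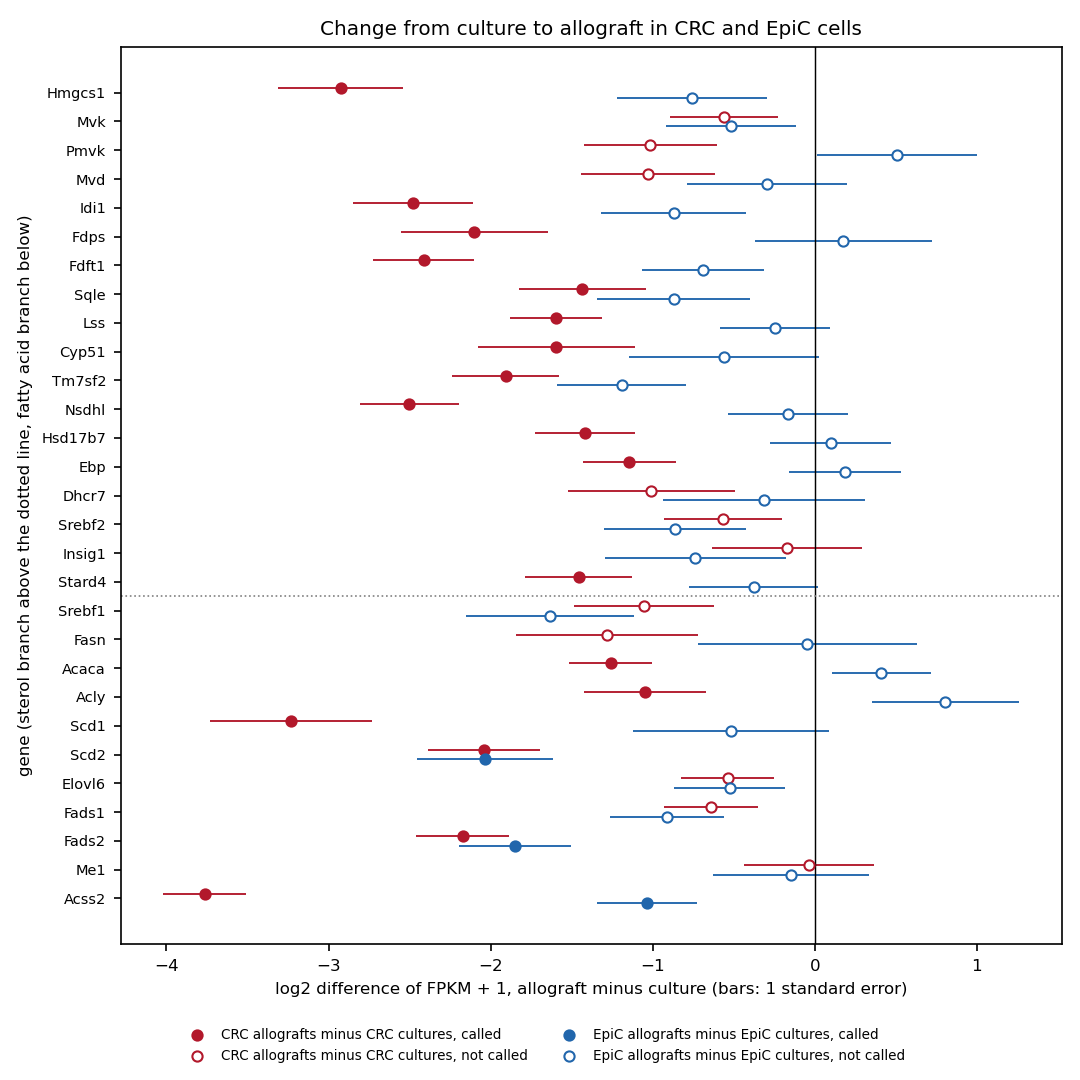
The x axis is the log2 difference of FPKM + 1, allograft minus culture, with bars of 1 standard error, and the y axis lists the 29 genes. Filled points passed an adjusted p of 0.05, which 18 did for CRC cells (red) and 3 for EpiC cells (blue).

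Hmgcs1 ranged from 7.67 to 28.4 FPKM in the 7 CRC allografts (median 18.7) and stood at 12.7, 32.0 and 27.2 in EpiC allografts 7B, 4C and 5A. The CRC allografts all lay below the CRC cultures. The EpiC allografts overlapped the EpiC cultures only through EpiC culture 3 (15.75 FPKM), and all lay below EpiC cultures 1 and 2 (41.9 and 53.03). The log2 difference was -2.93 (SE 0.38, limma adjusted p = 4.39e-05) for CRC cells and -0.76 (SE 0.46, limma adjusted p = 0.305) for EpiC cells, and the difference between them was -2.17 (SE 0.60, limma adjusted p = 0.0313). Mvk, Pmvk and Mvd were not called on either side. Idi1 ranged from 0.618 to 2.26 FPKM in the CRC allografts and was called there (log2 difference -2.48, SE 0.37, limma adjusted p = 0.000133). Fdps and Fdft1 were called in CRC cells as well, with log2 differences of -2.10 and -2.41, and for EpiC cells the values were 0.18 and -0.69, neither called.

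Fdft1 ranged from 11.6 to 19.9 FPKM in the CRC allografts, with every library below the lowest CRC culture, and stood at 22.3, 15.5 and 34.6 in EpiC allografts 7B, 4C and 5A. Nsdhl ranged from 9.22 to 16.5 FPKM in the CRC allografts and stood at 20.9, 24.5 and 26.4 in EpiC allografts 7B, 4C and 5A. The CRC allografts lay below the EpiC allografts and below the cultures. For Nsdhl too the EpiC allografts overlapped the EpiC cultures only through EpiC culture 3 (18.2 FPKM). They lay below EpiC cultures 1 and 2 (28.1 and 35.8). Its log2 difference was -2.50 for CRC cells (SE 0.31, limma adjusted p = 2.32e-05) and -0.16 for EpiC cells, and the difference between the contrasts was -2.34 (SE 0.48, limma adjusted p = 0.00604). Sqle, Lss, Cyp51, Tm7sf2, Hsd17b7, Ebp and Stard4 were called lower in CRC allografts, with log2 differences from -1.91 for Tm7sf2 to -1.14 for Ebp. Dhcr7 (-1.01), Srebf2 (-0.57) and Insig1 (-0.17) were not called. Insig1 spanned 4.96 to 34.5 FPKM in the CRC allografts, a range that holds the 3 CRC cultures.

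Of the fatty acid genes, Acss2 had the largest fall in CRC cells. It lay between 1.33 and 2.21 FPKM in the CRC allografts and between 1.49 and 2.23 in the EpiC allografts, below every culture. The log2 difference was -3.76 for CRC cells (SE 0.26, limma adjusted p = 8.54e-08) and -1.03 for EpiC cells (SE 0.31, limma adjusted p = 0.0386), and that of the contrasts was -2.73 (SE 0.40, limma adjusted p = 0.000582). By group, Acss2 was at 38.7 ± 19.4 FPKM in CRC cultures and 5.51 ± 1.19 in EpiC cultures (SD, n = 3), and at 1.78 ± 0.32 in CRC allografts (SD, n = 7) and 1.98 ± 0.43 in EpiC allografts (SD, n = 3). Acaca lay between 2.48 and 7.21 FPKM in the CRC allografts and at 5.35, 6.32 and 4.51 in EpiC allografts 7B, 4C and 5A, with log2 differences of -1.26 (called) and 0.41 (not called).

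Scd1 ranged from 35.7 to 66.8 FPKM in the CRC allografts and stood at 194.7, 61.1 and 65.6 in EpiC allografts 7B, 4C and 5A. Every CRC allograft lay below every CRC culture, and the EpiC allografts overlapped the EpiC cultures. The log2 difference was -3.23 (SE 0.50, limma adjusted p = 0.000182) and -0.52 (SE 0.60, limma adjusted p = 0.622). Scd2 was called in both. It ranged from 60.96 to 117.3 FPKM in the CRC allografts and stood at 81.5, 36.5 and 37.7 in the EpiC allografts, and its log2 differences were -2.04 (limma adjusted p = 0.000388) and -2.03 (limma adjusted p = 0.00528). Fads2, the first desaturase of polyunsaturated fatty acids, was called on both sides as well, at -2.17 and -1.85, with 11.6 to 35.1 FPKM in the CRC allografts and 13.1 to 16.6 in the EpiC allografts. For Scd2 and Fads2 the difference between the contrasts was -0.01 (SE 0.54) and -0.33 (SE 0.45), not called. Acly was called in CRC cells (-1.05, limma adjusted p = 0.0401), and Fasn, Srebf1, Elovl6, Fads1 and Me1 were not called in either contrast.

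**Figure D3:**
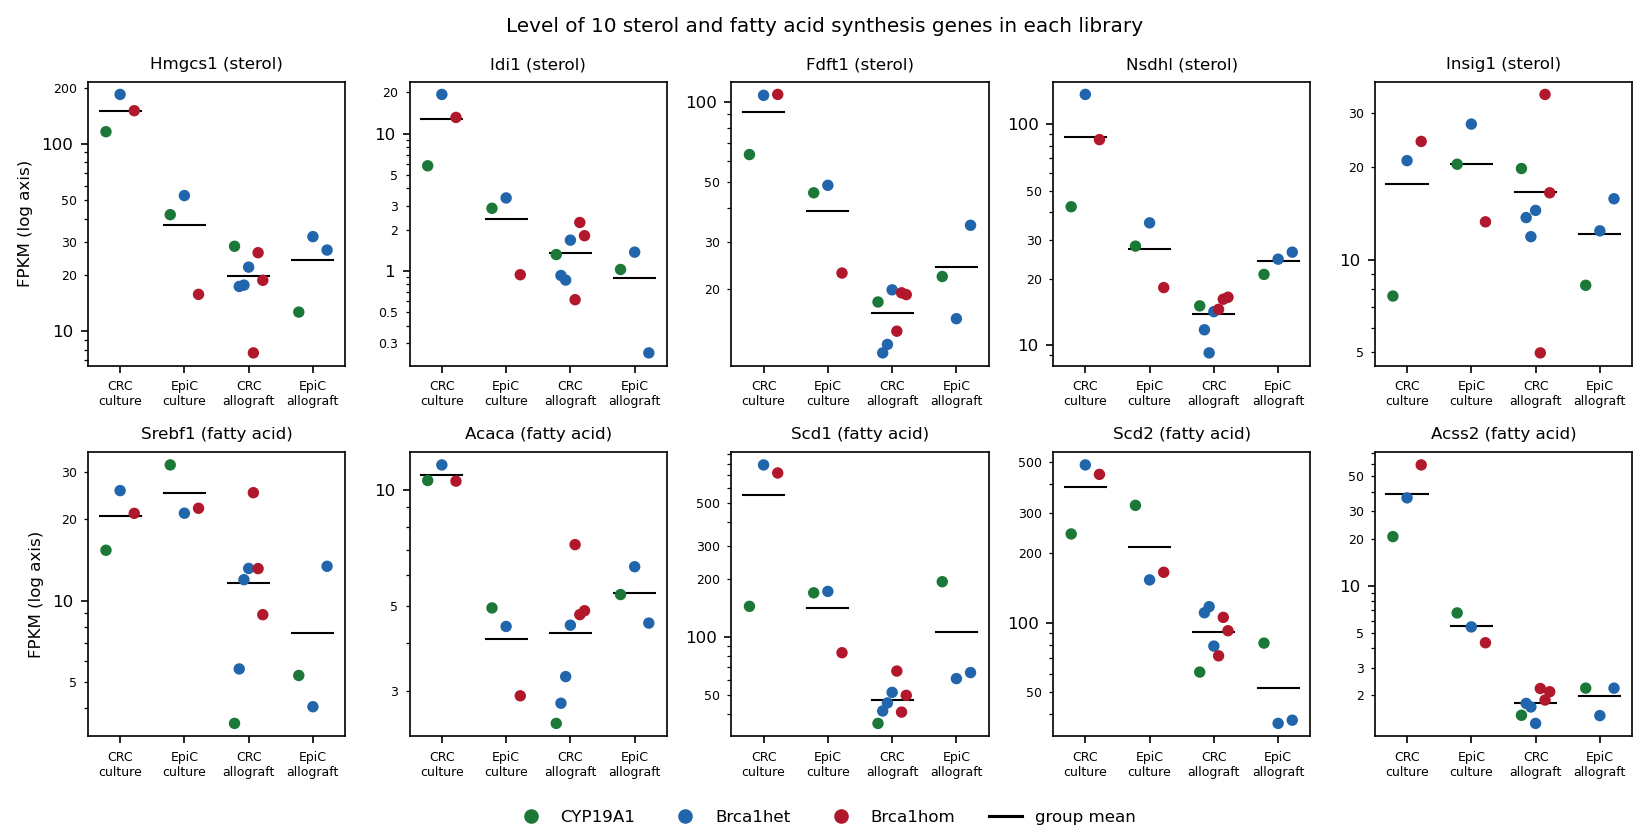
FPKM of 10 of the 29 genes on a log axis in each library of 4 groups, with points coloured by genotype and lines at the group means. Acss2 lies between 1.33 and 2.23 FPKM in all 10 allografts, and Insig1 overlaps between the groups.

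The other sterol genes were counted in the same contrasts. In CRC allografts 4 of 16 tested were called higher, a share near the 21.2% of all genes called higher, among them Lipa (2.34), the esterifying enzyme gene Soat1 (1.38) and Mylip, a ligase gene that lowers the LDL receptor (1.34). In the same contrast 10 of 16 were called lower, against 18.4% of all genes, among them Msmo1 (-2.65). In EpiC allografts 0 of the 16 were called higher, where 7.94% of all genes were. There 2 were called lower, Sc5d (-1.92) and Insig2 (-1.27), where 6.26% of all genes were. In the test between the contrasts 1 was called lower for CRC cells, Msmo1 (-2.23), and 1 higher, Lipa (2.19), where 6.35% of all genes were called higher.

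Of the 8 genes of LXR and sterol efflux, 4 were called higher in CRC allografts, against the same 21.2% of all genes, among them Apoe (9.51), Ch25h (2.31) and the sterol exporter gene Abcg1 (2.01), and 1 lower, Lpcat3 (-1.93). In EpiC allografts 2 were called higher, against 7.94% of all genes, Apoe (7.37) and Cyp27a1 (1.86), and 1 lower, Lpcat3 (-1.06). Ch25h was called in the test between the contrasts, at 4.07. Macrophage markers were called higher in both contrasts, 10 of 10, and their part in these genes was not tested. Abcg1 was not called in EpiC allografts (0.21, SE 0.55). Of 19 other fatty acid and lipid genes tested, 0 were called higher and 7 lower in CRC allografts, led by Elovl7 (-3.88), Acsl3 (-1.97) and G6pdx (-1.68). In EpiC allografts 1 was called higher (Mlx, 0.92) and 2 lower (Dgat2 at -2.06 and Elovl7 at -1.91). Of all genes 18.4% were called lower in CRC allografts and 6.26% in EpiC allografts. In the test between the contrasts Elovl7 (-1.97) and Acsl5 (-1.24) were called lower for CRC cells and Dgat2 (1.67) higher. Over all 16 libraries together, 4 other sterol genes were called higher and 9 lower in allografts. Among the genes of LXR and sterol efflux 4 were called higher and 1 lower, and among the other fatty acid genes 0 higher and 8 lower. Over all genes 18.2% were called higher and 16.4% lower.

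Fat cells of the host gland also carry these enzymes. Adipocyte markers summed to between 26.2 and 248.6 FPKM in the allografts and to between 62.9 and 476.6 in the cultures. Fabp4, which capillary endothelium and macrophages also express, gave 21.5 to 149.6 FPKM of this in the allografts. Adipoq, a defining fat cell gene, reached at most 8.40 FPKM in an allograft and Plin1 at most 0.652. Of 8 adipocyte markers tested in allografts against cultures, 5 lay above 0 and 3 below, with 1 called higher and 1 lower. Of all genes 18.2% were called higher and 16.4% lower. The median log2 difference of these markers was 0.19 for CRC cells and 0.95 for EpiC cells. The part of fat cells was not tested. Without EpiC culture 3, 22 members were called lower in the CRC allografts, 5 in the EpiC allografts (Acss2, Fads2, Scd2, Srebf1 and Tm7sf2) and 3 in the test between the contrasts (Acaca, Acss2 and Nsdhl). Without EpiC allograft 5A, 5 were called in the EpiC allografts, the same genes, where 8.68% of all genes were called lower. Over all settings tried, the share of all genes called lower lay between 11.9% and 21.4% for CRC allografts. It lay between 3.12% and 8.68% for EpiC allografts and between 2.82% and 8.63% in the test between the contrasts.

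The allografts were also compared by culture of origin. Of the 29 genes 0 were called between CRC and EpiC allografts in limma's test, where 0.00833% of 11999 genes were. An unadjusted p under 0.05 was found for 6 of the 29 and for 1011 of the 11999. The median log2 difference, CRC minus EpiC, was -0.03 over the sterol branch and -0.20 over the fatty acid branch. The lowest unadjusted p belonged to Nsdhl, with a log2 difference of -0.89 (SE 0.24, limma adjusted p = 0.345) and groups that did not overlap. Acly (-1.20), Scd1 (-1.03), Ebp (-0.80) and Acaca (-0.62) also lay below 0 at an unadjusted p under 0.05, and Scd2 (0.88) above it. All 8 epithelial markers lay below 0 as well, with 0 called and 3 at an unadjusted p under 0.05. All 8 skeletal muscle markers, all 8 endothelial markers and 8 of 9 fibroblast markers lay above 0, with 4, 1 and 3 at an unadjusted p under 0.05 and 0 called. The part of these markers was not tested. A p that misses the threshold does not show that the origins were alike.

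The CRC allografts with both Brca1 alleles conditional were set against those with 1 such allele, 3 against 3, and 0 members were called in limma's test, where 0% of 11928 genes were. An unadjusted p under 0.05 was found for 2 of the 29, Fasn and Acly, and for 1246 of the 11928 genes. The log2 differences of Fasn and Acly, Brca1hom minus Brca1het, were 1.22 (SE 0.47, limma adjusted p = 0.445) and 0.98 (SE 0.33, limma adjusted p = 0.404). Fasn was at 72.4, 39.9 and 36.2 FPKM in Brca1hom allografts 1, 2 and 12 and at 9.67, 23.3 and 33.2 in Brca1het allografts 10B, 10C and 11C. The groups did not overlap. Of 10 macrophage markers 9 lay above 0, 8 of the 10 had an unadjusted p under 0.05 and 0 were called. All 8 endothelial markers and all 8 adipocyte markers tested lay below 0, 5 and 2 of them at an unadjusted p under 0.05, as did 7 of 9 fibroblast markers, of which list 3 had such a p. The part of these markers was not tested. The sterol branch had a median of 0.30, with 14 of 18 genes above 0 and 0 at an unadjusted p under 0.05.

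The highest and lowest allografts differed between the branches. CRC allograft 1 held the lowest level among the 7 CRC allografts for 7 of 18 sterol genes and the highest for 4, with Cyp51 at 9.83, Sqle at 17.0 and Insig1 at 4.96 FPKM among the lowest. It held the highest level for 6 of 11 fatty acid genes, with Fasn at 72.4, Acly at 121.1 and Srebf1 at 25.1. CRC allograft 6C held the highest Cyp51 (56.3) and Sqle (61.9) and the lowest level for 5 of 11 fatty acid genes, with Fasn at 5.13, Acaca at 2.48 and Srebf1 at 3.52 FPKM. Allografts 2 and 12, of the same Brca1hom genotype as allograft 1, stood at 34.5 and 16.5 FPKM for Insig1 and at 39.9 and 36.2 for Fasn. Allograft 6C is the single CYP19A1 one among the CRC allografts, so its library and genotype cannot be told apart. In the branch means of log2(FPKM + 1), CRC allograft 1 stood at 3.75 for sterols and 4.62 for fatty acids, and CRC allograft 6C at 3.97 and 3.85.

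**Figure D4:**
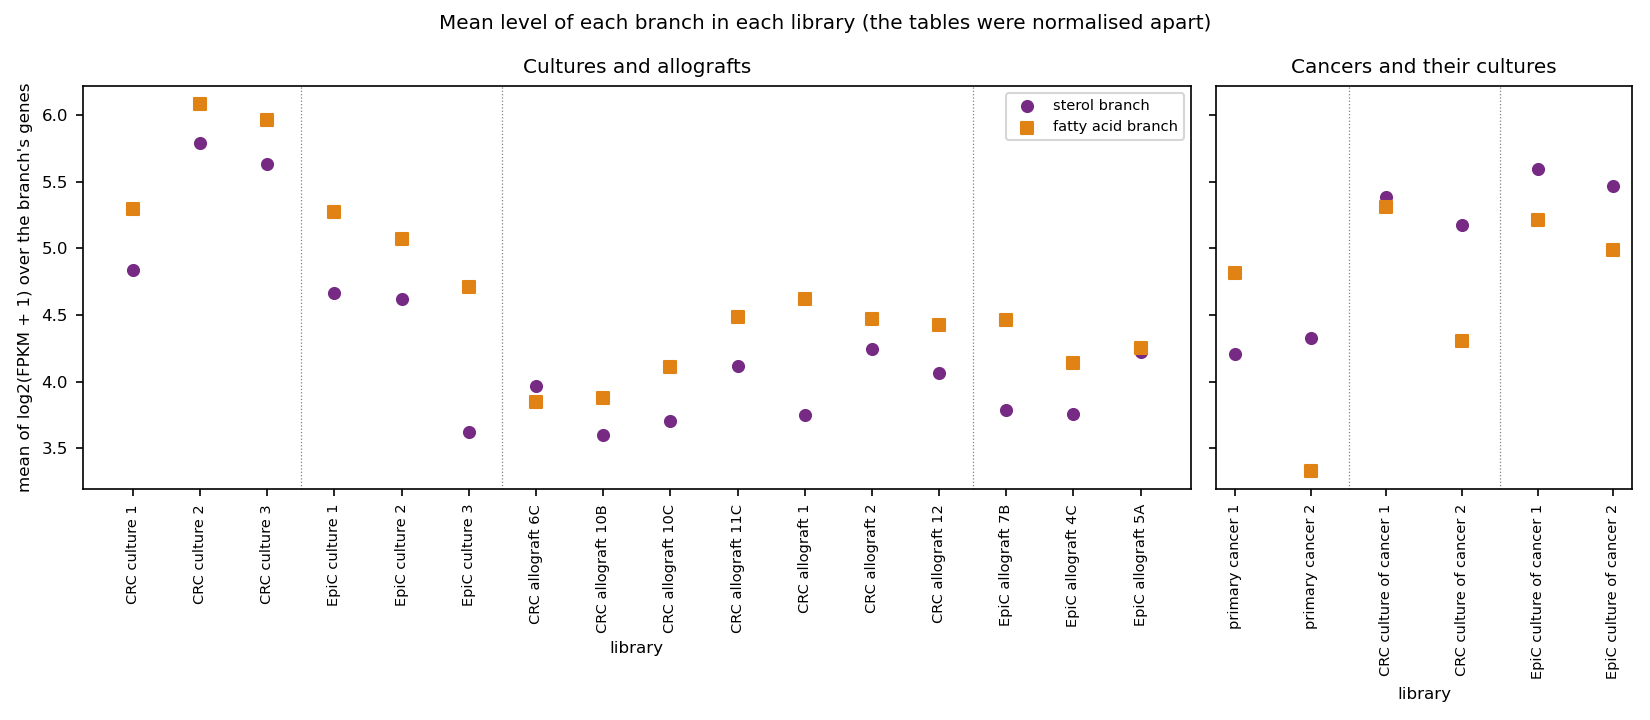
The mean of log2(FPKM + 1) over the genes of each branch (y axis) in each library (x axis), with the 2 tables in separate panels since they were normalised apart. CRC cultures 2 and 3 stand highest at 5.79 and 5.64 for the sterol branch, and in the cancer panel primary cancer 2 stands lowest for the fatty acid branch at 3.33.

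The last comparisons asked how the cultures of primary cancers compare with the cancers themselves. Here 27 of the 28 genes present were tested, because Hmgcs1, which has 2 entries, is listed at 0 in all 6 libraries. In the first table Hmgcs1 lay between 7.67 and 183.7 FPKM. The values of 0 may be a failed estimate, which was not tested, so they are not read as absence of the transcript. In limma's test 0 of 27 were called between CRC cultures and cancers, where 0.889% of 12266 genes were called. An unadjusted p under 0.05 was found for 5 of the 27 and for 861 of the 12266. Between EpiC cultures and cancers 0 were called, where 0.677% of genes were. Such an unadjusted p was found for 7 of the 27 and for 834 of all genes tested. Between CRC and EpiC cultures 0 were called, where 0.00815% of genes were. Here 1 of the 27 and 200 of all genes tested had an unadjusted p under 0.05. With 2 libraries a group, all of these rest on 3 residual degrees of freedom. Both contrasts with the cancers use the same 2 cancer libraries.

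Most sterol genes had higher values in culture than in the cancer, although none was called. Over all genes tested, the median log2 difference from the cancers was -0.060 for CRC cultures and 0.081 for EpiC cultures. In cancer 1, 15 of 16 sterol genes were higher in the CRC culture than in the cancer (median log2 difference 1.04), and 15 of 16 were higher in the EpiC culture (1.32). In cancer 2, 12 of 16 (0.86) and 15 of 16 (1.00) were higher. Idi1 was at 18.3 and 20.6 FPKM in cancers 1 and 2, at 96.5 and 61.0 in their CRC cultures and at 73.5 and 98.2 in their EpiC cultures. Cultures and cancers did not overlap, and the log2 differences were 1.93 (SE 0.50, limma adjusted p = 0.226) and 2.08 (SE 0.50, limma adjusted p = 0.189). Fdps was at 63.3 and 70.1 FPKM in the cancers, 235.5 and 783.3 in the CRC cultures and 289.2 and 276.9 in the EpiC cultures, with log2 differences of 2.67 (SE 0.67, limma adjusted p = 0.21) and 2.07 (SE 0.67, limma adjusted p = 0.434). Every culture lay above both cancers for Fdps and for Insig1, which sterols regulate through SREBP. Insig1 was at 17.7 and 12.8 FPKM in the cancers, 38.0 and 20.8 in the CRC cultures and 73.9 and 80.3 in the EpiC cultures, and it had the lowest unadjusted p of the 27 between EpiC cultures and cancers (log2 difference 2.28, SE 0.52, limma adjusted p = 0.164).

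Cancers 1 and 2 lay far apart for several fatty acid genes, with no replicate of either. Scd1 was at 122.2 FPKM in cancer 1 and 8.21 in cancer 2, Scd2 at 102.0 and 6.22, and Fads2 at 24.1 and 2.20. Srebf1 was at 54.8 and 8.10 FPKM, and Acss2 at 6.88 and 0.826. In the cultures of cancer 2, Scd1 reached 80.3 (CRC) and 338.3 FPKM (EpiC), and in those of cancer 1 it was 477.6 and 120.3. Between CRC and EpiC cultures the order of Scd1 was opposite in the 2 cancers, and its log2 difference was -0.04 (SE 1.37). Of the 27 genes, 11 of 16 sterol genes and 8 of 11 fatty acid genes lay lower under CRC than under EpiC. Their median log2 differences were -0.28 and -0.23, beside -0.081 over all genes tested, which rescaling by median ratios moved to 0.023. Insig1 (-1.42, SE 0.52) had the 1 unadjusted p under 0.05.

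**Figure D5:**
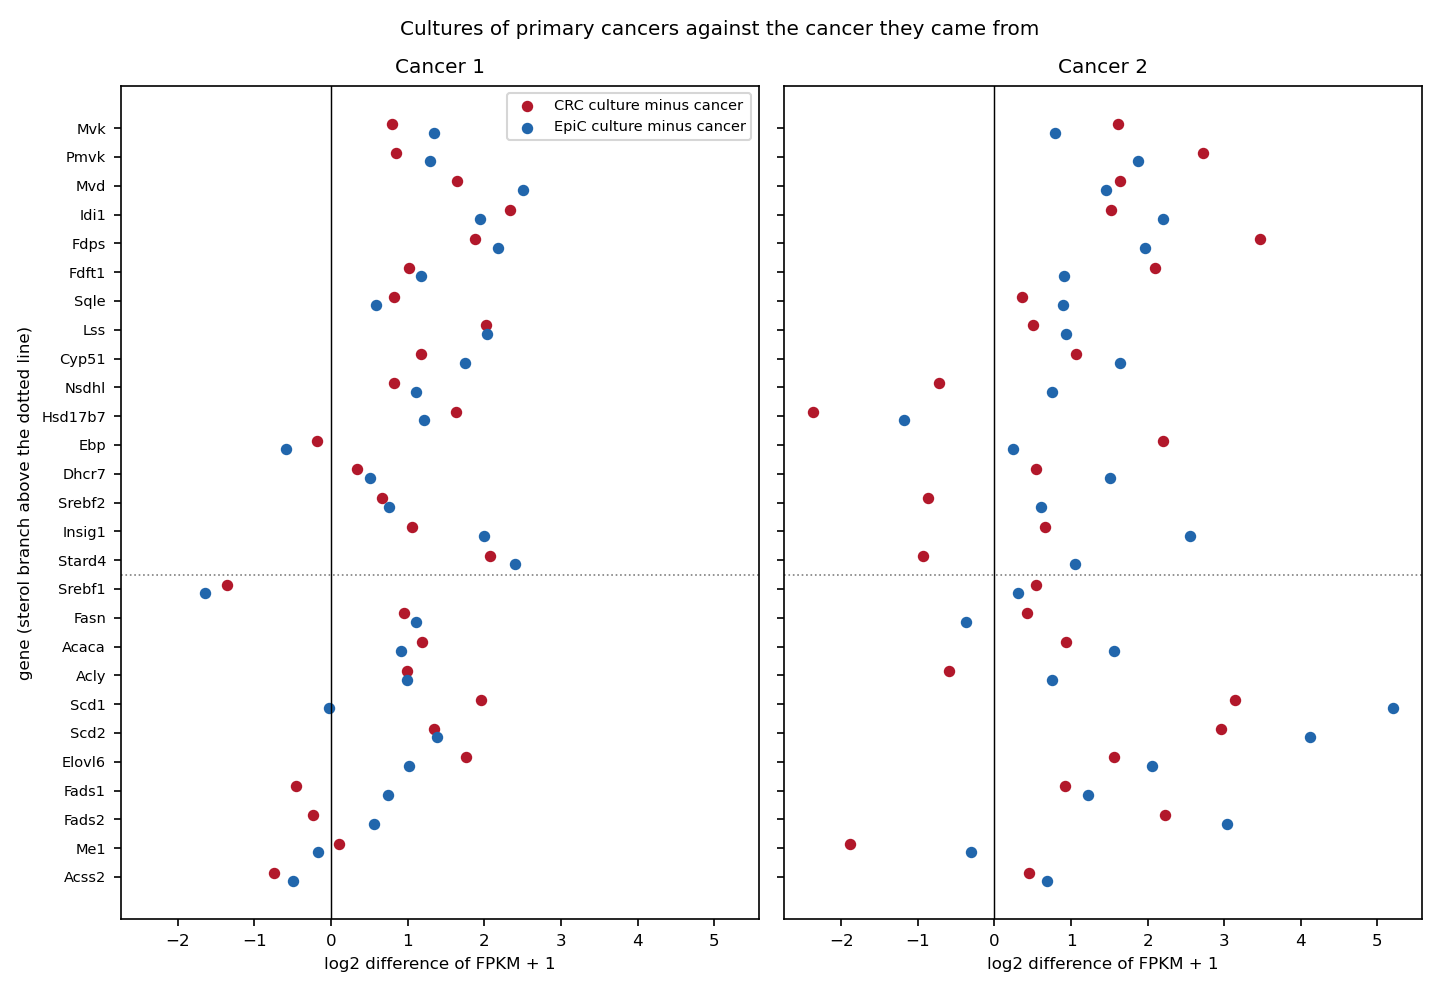
The x axis is the log2 difference of FPKM + 1 between a culture and the cancer it came from, the y axis lists the 27 genes tested, and the panels are cancers 1 and 2. Sterol genes lie above 0 in 15 of 16 cases for the EpiC culture of each cancer, and the EpiC points of Scd1 and Scd2 lie farthest right in cancer 2.

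Markers of other cells differed here too. Macrophage markers summed to 1032 and 1484 FPKM in the cancers and to between 10.3 and 37.1 in the 4 cultures, and fibroblast markers summed to 429.6 and 558.6 in the cancers and to between 67.9 and 258.1 in the cultures. Epithelial markers summed to 2170 FPKM in cancer 1, 2260 in its CRC culture and 2761 in its EpiC culture, and to 4960, 11750 and 2690 in cancer 2 and its CRC and EpiC cultures. Their part in the differences between cultures and cancers was not tested. Of the other lists, Apoe was called lower in both kinds of culture (-7.94 and -8.46 on the log2 scale), and 0 other sterol genes and 0 other fatty acid genes were called.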

How the data were processed

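Poly(A) RNA of 22 mouse libraries was sequenced by the paired-end method on TruSeq libraries, per the labels' protocols. FastQC, Trim Galore, TopHat, Cufflinks and the build mm9 are named in the submitters' processing notes, with no version, while annotation and scaling were not stated there. The deposited values are FPKM in 2 tables that were normalised apart, so each test stayed within 1 table. Of all entries, 407 in the cancer table shared a symbol and were summed, and 51.5% of that table's values above 0 carry over 6 digits, 97.2% of them ending in 5, the form of a mean of paired values. A gene was tested where its mean over the fitted libraries reached 1 FPKM, on log2(FPKM + 1) with limma 3.58.1 in R 4.3.3 (lmFit, then eBayes with trend), with Benjamini-Hochberg adjustment over all genes and a call at an adjusted p under 0.05. The fit was tested on simulated data. Fold changes on this scale understate those of low genes. Residual degrees of freedom were 2 for the cultures, 6 for the allografts, 11 and 10 for allografts against cultures, 4 for the Brca1 comparison and 3 for the cancers. Of 135 pairs of libraries 0 were identical. The genes and lists, and all tests, were chosen with earlier results of these data known. All 29 members are named, and of the other lists at most 3 called genes in each direction, some of which are not reported here. In the cancer table same-numbered libraries come from the same cancer by their titles, and the correlations of their deviations from the group means were -0.06, -0.11 and 0.24. Alternatives were the pseudocount, the filter, rescaling by median ratios, genotype or pairing in the model, CRC allografts 10B and 10C as 1 sample, Brca1het allografts alone, and each library left out.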

Additional observations from a re-analysis of the deposited data

Results flagged for a closer look

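In CRC allograft 1, Hmgcs1 stood at 7.674 FPKM, far below the next lowest of the 7 CRC allografts at 17.4. All 29 genes were examined for such a gap in that group. With 29 genes examined, 1 such gap may arise by chance, which was not tested. CRC allograft 1 held the lowest level of the group for 7 of 18 sterol genes, Hmgcs1 among them, and the highest for 4.

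In 6 genes the change from culture to allograft differed between CRC and EpiC cells by limma's test of the difference itself. The log2 differences, CRC minus EpiC, were -1.670 for Acaca, -2.728 for Acss2, -1.722 for Fdft1, -2.168 for Hmgcs1, -2.337 for Nsdhl and -2.716 for Scd1. Each was lower for CRC cells. Every CRC culture lay above every EpiC culture for Acaca, Acss2, Fdft1, Hmgcs1 and Nsdhl, as given above, while for Scd1 the cultures overlapped. The same culture libraries enter both the comparison of culture methods and this one.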

How the results depend on the processing

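The count of members called higher in CRC than in EpiC cultures was 6. It was 0 with no filter on low values and 10 with no genotype in the model. With each culture left out in turn it ranged from 0 to 5. Each such omission also took the other culture of that genotype out of the estimate. None of the 6 was called under every alternative. The share of all genes called higher moved as well, from 11.4% to 4.17% with no filter and 15.3% with no genotype. With each culture left out it lay between 0.406% and 8.23%. The 6 members called for the difference between the contrasts became 3 with no filter and 3 with CRC allografts 10B and 10C as 1 sample, and ranged from 3 to 10 with each library left out. Of these, Acaca, Acss2 and Nsdhl were called under every alternative. Over all settings 2.82% to 8.63% of all genes were called lower for CRC cells in that test. The 3 called in EpiC allografts ranged from 2 to 5 with a library left out, and 2 of them (Scd2 and Fads2) were called throughout. In CRC allografts 14 of the 18 were called throughout, and Acly (largest adjusted p = 0.259), Cyp51, Sqle and Ebp were not. In allografts against cultures 11 of 15 were. The log2 differences of called members kept their sign under these alternatives. Medians near 0 did not, and between CRC and EpiC allografts they ranged from -0.147 to 0.13 (sterol) and from -0.338 to 0.123 (fatty acid). Between CRC and EpiC cultures of the cancers the fatty acid median ranged from -0.772 to 0.214. In the cancer table a call between CRC cultures and cancers arose only for Fdps, and only without the CRC culture of cancer 1. That setting left a single CRC culture, that of cancer 2, where Fdps was at 783.3 FPKM. This library also had the highest summed FPKM of the cancer table. With the pairing of libraries from the same cancer as a replicate block, 0 members were called in each of the 3 comparisons, as without it. Rescaling by median ratios moved the median over all genes by 0.104 on the log2 scale between CRC and EpiC cultures of the cancers, from -0.081 to 0.023, and by less than 0.1 elsewhere. The number of reads is unknown, so low values such as Idi1 in the allografts carry no counting error here. Where 1 library of a group remained, it was assumed to vary like the other groups.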

Other observations

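The ratio of Scd1 to Scd2, a pair of desaturase genes, was examined after the values were seen. It lay between 0.375 and 0.932 in the 7 CRC allografts (median 0.542) and at 1.67, 1.74 and 2.39 in the 3 EpiC allografts, with no overlap. In the cultures it was 0.597, 1.63 and 1.62 under CRC and 0.527, 1.13 and 0.503 under EpiC, where the groups overlapped. In the primary cancers it was 1.20 and 1.32.

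Over the 16 libraries of cultures and allografts the widest span among the 29 genes was that of Idi1, whose highest value was 76.4 times its lowest. Acss2 followed at 44.6 times, Tm7sf2 at 26.7, Hmgcs1 at 23.9 and Scd1 at 22.1.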
